A study of Mus musculus with 28 samples.

Results

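The neuronal intermediate filament genes form a family of 5: Nefl, Nefm, Nefh, Ina and Prph. They were taken by name from a table of 25900 genes measured by polyA RNA sequencing of frontal cortex, and each name matched 1 gene. The mice were 20 months old on the C57BL/6 background and had the Q331K mutation of amyotrophic lateral sclerosis (ALS) knocked into Tardbp, which encodes TDP-43, a protein that binds RNA in the nucleus. There were 10 homozygous libraries (HOM, Q331K/Q331K), 10 heterozygous libraries (HET, Q331K/+) and 8 wild-type libraries (WT, +/+). The allele sits in the mouse's own gene, so no separate promoter or Cre line restricted it to a cell type. Sex, litter and batch are not in the labels, and nothing there ties each library to a separate mouse. The p-values thus describe library-to-library spread, some of which may be technical.

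Neurofilaments are the space-filling polymers of the axon and set its calibre. Nefl encodes the light subunit on which the polymer is built, Nefm and Nefh encode the medium and heavy subunits whose long phosphorylated tails project from it, and Ina encodes alpha-internexin, the partner of the other subunits in central neurons. Prph encodes peripherin, which belongs mainly to peripheral neurons and to central neurons that send axons to the periphery. Neurofilaments accumulate in motor neurons in ALS, light chain in blood or cerebrospinal fluid is used as a measure of axonal damage, and TDP-43 has been reported to bind human NEFL RNA.

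Total counts, with M for 1000000 reads, were 30.5 to 62.6 M per library in HOM, 45 to 74.9 M in HET and 46.5 to 64.1 M in WT. The shallowest libraries were HOM 2 (30.5 M) and HOM 1 (32.8 M). The summed level of 12 pan-neuronal markers was 9690 to 11000 CPM (counts per M of the TMM-scaled library total) in HOM, 10100 to 11000 CPM in HET and 10200 to 10900 CPM in WT. Markers of cortical layers were present, with 10 upper-layer markers at 737 to 966 CPM in HOM, 824 to 981 CPM in HET and 781 to 935 CPM in WT. The 14 markers of deep-layer projection neurons summed to 374 to 496 CPM in HOM, 402 to 521 CPM in HET and 437 to 503 CPM in WT. Striatal neuron markers were present too, 9 genes that summed to 215 to 524 CPM in HOM, 211 to 342 CPM in HET and 189 to 649 CPM in WT, so some libraries stood apart in it. The mutated gene itself, Tardbp, averaged 349 ± 18.9 CPM in HOM (SD, n = 10), 328 ± 13.3 CPM in HET (n = 10) and 321 ± 13.6 CPM in WT (n = 8), and the substitution itself cannot be read from gene counts.

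On GRCm38, Nefl (ENSMUSG00000022055) lies on the plus strand of chromosome 14 from 68083863 to 68089095 and has 4 exons. Its neighbour Nefm (ENSMUSG00000022054) lies on the minus strand of the same chromosome from 68082590 to 68124846, and its span takes in the whole of Nefl. A long 3′ exon of the annotated transcript Nefm-202 shares 1108 exon bases with Nefl on the opposite strand, so reads there could be counted for either gene, and both counts are uncertain to that extent. Nefh (ENSMUSG00000020396) lies on the minus strand of chromosome 11 from 4938754 to 4948064. Ina (ENSMUSG00000034336) lies on the plus strand of chromosome 19 from 47014698 to 47025327 and shares 456 exon bases with Nt5c2 on the other strand. Prph (ENSMUSG00000023484) lies on the plus strand of chromosome 15 from 99055174 to 99058978.

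RefSeq promoter windows of 300 bases on GRCm38.p6 were at hand for 2 of the 5 genes, Ina and Prph, an abundant and a scarce member. Both are shown 5′ to 3′ on the plus strand, with matches to TATAAA or GGGCGG on either strand in capitals (a GGGCGG on the minus strand reads CCGCCC). No match of one motif overlapped a match of the other.
Ina, chr19:47014431-47014730: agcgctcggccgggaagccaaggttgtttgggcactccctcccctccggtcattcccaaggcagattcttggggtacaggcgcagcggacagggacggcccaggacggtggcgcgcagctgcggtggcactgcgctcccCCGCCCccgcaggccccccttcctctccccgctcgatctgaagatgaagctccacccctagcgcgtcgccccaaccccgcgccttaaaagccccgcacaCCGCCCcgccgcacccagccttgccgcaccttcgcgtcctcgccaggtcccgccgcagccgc
Prph, chr15:99054924-99055223: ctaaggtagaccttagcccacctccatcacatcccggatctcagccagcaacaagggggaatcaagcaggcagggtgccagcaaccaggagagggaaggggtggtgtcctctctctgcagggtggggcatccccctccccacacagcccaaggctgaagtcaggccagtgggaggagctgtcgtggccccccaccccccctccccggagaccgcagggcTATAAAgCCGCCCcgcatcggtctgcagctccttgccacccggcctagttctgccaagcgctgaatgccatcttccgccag
The Ina window was 71.7% G or C and the Prph window 64.7%, against a median of 52.7% over 32851 mouse promoters. Prph had 1 TATAAA, which began 31 bases before the annotated start, and Ina had none. TATAAA occurred on either strand in 13.6% of all windows. GGGCGG occurred on the minus strand 2 times in Ina and 1 time in Prph, and on either strand in 35.7% of all windows.

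Because TDP-43 binds RNA rich in UG repeats, the annotated 3′ untranslated regions were searched for TGTGTG on the transcript strand. Nefl-201 held 1 match at base 1608 of 1648, and Nefm-201 held 1 at base 499 of 754. Each is shown with 8 bases on either side and the match in capitals.
Nefl-201: ttcaatccTGTGTGccataata
Nefm-201: aagccaaaTGTGTGgtgatgtg
The longer Nefm-202 held 3 matches in 2234 bases. The annotated transcripts of Nefh (591 bases of 3′ untranslated region), Ina (1677 bases) and Prph (up to 308 bases) held 0. By comparison, 47.7% of the longest untranslated regions of 21037 genes held at least 1 TGTGTG. The share was 67.1% among regions of 1400 to 1900 bases, the lengths near those of Nefl and Ina, and 24.2% among regions of 300 to 600 bases, the lengths of Nefh and Prph. These matches are letters in the annotation and say nothing of binding in these cortices.

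All 5 genes passed the filter on low counts. On a per-length scale (CPM per kilobase of exon, mean of 28 libraries) Nefl stood highest at 164, rank 142 of 15905 tested genes with a length. Ina followed at 66.7 (rank 529) and Nefm at 57.4 (rank 658), but with the length of Nefm-201 alone Nefm came to 99.5 per kilobase and stood above Ina, so the order of these neighbours depends on the length used. Nefh was at 20.8 (rank 2309) and Prph at 0.252 (rank 14279). Of the summed per-length level of the family, Nefl made up 53.1% in HOM, 52.7% in HET and 53.6% in WT. Nefh made up 6.43% in HOM, 6.86% in HET and 6.88% in WT, and Prph less than the other members in each genotype, at 0.0924% in HOM, 0.0799% in HET and 0.0725% in WT.

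The comparison of genotypes asked whether 1 or 2 mutant alleles changed the transcripts of the family. None of the 5 genes passed the threshold, an adjusted p under 0.05 in edgeR's quasi-likelihood test over 16110 genes, whether HOM or HET was set against WT, HOM against HET, or a slope fitted per allele. Over all genes 7.61% were called in HOM against WT, 0% in HET against WT, 0.0372% in HOM against HET and 7.78% in the slope. At an unadjusted p under 0.05 the count of members was 0 in HOM against WT, 0 in HET against WT, 1 in HOM against HET (Nefh) and 0 in the slope, where the shares over all genes were 24.6%, 9.6%, 8.54% and 24.7% in that order. DESeq2 and limma voom each called 0 members after adjustment in the same 4 comparisons. Over all 16110 genes DESeq2 called 1563, 12, 50 and 1611, and voom 1429, 14, 53 and 1422, listed likewise. At an unadjusted p under 0.05 each tool had 1, 0, 1 and 1 members. Over all genes DESeq2 had 4004, 1612, 1398 and 4023 at that threshold, and voom 4149, 2311, 1984 and 4111. The smallest unadjusted p among the members belonged to the heavy subunit.

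**Figure D1:**
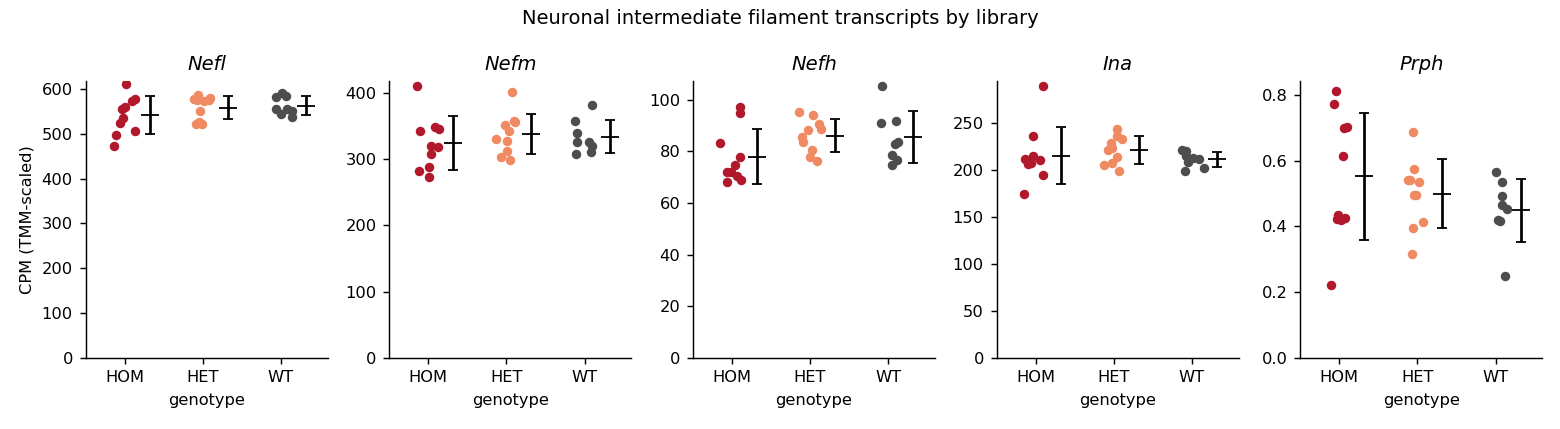
TMM-scaled CPM of each gene (vertical axes, each from 0) in the 10 HOM, 10 HET and 8 WT libraries. Points are libraries and bars are the mean ± SD. The genotypes overlap in all 5 panels, and Nefh in HOM has a mean of 77.9 CPM beside 86.0 in HET and 85.6 in WT.

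Nefl, the light subunit, ranged from 473 to 611 CPM in HOM with a median of 546, from 521 to 586 CPM in HET with a median of 574, and from 537 to 592 CPM in WT with a median of 556. HOM libraries lay on both sides of the WT range, 5 below its lowest value and 1 above its highest. The mean was 541 ± 42.1 CPM in HOM (SD, n = 10), 559 ± 26 in HET (n = 10) and 563 ± 20.5 in WT (n = 8). The log2 fold change was -0.06 in HOM against WT (SE 0.04, edgeR adjusted p = 0.38), with a 95% interval from -0.13 to 0.02. It was -0.01 in HET against WT (adjusted p = 0.95) and -0.05 in HOM against HET (adjusted p = 0.785), or -0.03 in the last without HOM 10. With the interval in HOM reaching no lower than -0.13, a larger fall of Nefl lay outside it.

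Nefm, the medium subunit, ranged from 273 to 411 CPM in HOM with a median of 319, from 299 to 401 CPM in HET with a median of 337, and from 308 to 382 CPM in WT with a median of 326. The HOM range took in the whole WT range, with 4 libraries below it and 1 above. Its log2 fold change was -0.04 in HOM against WT (SE 0.06, 95% interval -0.17 to 0.08, edgeR adjusted p = 0.717), and the means were 324 ± 40.7 CPM in HOM and 334 ± 25.1 CPM in WT. The mean in HET was 338 ± 30.7 CPM, 0.02 above WT on the log2 scale (adjusted p = 0.947). Without HET 10, the highest HET library at 401 CPM, that difference was -0.01. The difference of HOM from WT was -0.01 without WT 6 and -0.09 without HOM 9, and without WT 6 and HOM 3 together it was close to 0 (0.0017). In HOM against HET it was -0.06 (adjusted p = 0.835), and between -0.11 (without HOM 9) and -0.03 (without HET 10) with 1 library left out.

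Nefh, the heavy subunit found in the large axons of mature neurons, ranged from 68.2 to 97.2 CPM in HOM with a median of 73.4, from 76.3 to 95 CPM in HET with a median of 87.0, and from 74.7 to 105 CPM in WT with a median of 83.3. Most HOM libraries stood at the low end: 8 of 10 were below the WT mean and 5 were below the lowest WT library, while the other 5, led by HOM 1 (97.2 CPM) and HOM 9 (94.8 CPM), lay within the WT range. The mean was 77.9 ± 10.6 CPM in HOM (SD, n = 10), 86.0 ± 6.49 in HET (n = 10) and 85.6 ± 10.1 in WT (n = 8). In HOM against WT the log2 fold change was -0.14 (SE 0.07, 95% interval -0.28 to 0, unadjusted p = 0.0633, edgeR adjusted p = 0.233), a difference of -9.08%. In HOM against HET it was -0.15 (SE 0.07, 95% interval -0.28 to -0.01, unadjusted p = 0.0389, edgeR adjusted p = 0.564), with 6 HOM libraries below the lowest HET library and 1 above the highest. Neither difference passed after adjustment over all genes.

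In HET against WT the log2 fold change of Nefh was 0.01 (95% interval -0.13 to 0.15, edgeR adjusted p = 0.983), and its sign turned without some single libraries (-0.02 without WT 5). WT 6, with 105 CPM, was the highest of the 28 libraries. Without it the difference of HOM from WT was -0.09, and without HOM 1 it was -0.18. Over 29 alternative settings and left-out libraries it stayed between -0.18 and -0.07, with adjusted p between 0.087 and 0.582.

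Ina, the alpha-internexin gene, ranged from 174 to 289 CPM in HOM with a median of 209, from 199 to 244 CPM in HET with a median of 222, and from 199 to 221 CPM in WT with a median of 212. The WT libraries lay close together, and HOM libraries fell on both sides of them, 2 below and 2 above. In HET, 6 of 10 libraries exceeded all of WT. The log2 fold change was 0.03 in HOM against WT (SE 0.06, 95% interval -0.09 to 0.14, edgeR adjusted p = 0.823), 0.07 in HET against WT (95% interval -0.05 to 0.18, adjusted p = 0.722) and -0.04 in HOM against HET (adjusted p = 0.907). The sign in HOM against WT rested on HOM 1, the highest library at 289 CPM and one of the shallowest. Without it the difference was -0.03. In HOM against HET it was -0.09 without HOM 1 and -0.01 without HOM 10, so its size rested on single libraries as well.

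Prph, the peripherin gene, was close to the detection limit, with 11 to 45 counts per library in HOM, 20 to 37 in HET and 13 to 30 in WT. It ranged from 0.221 to 0.812 CPM in HOM with a median of 0.525, from 0.315 to 0.686 CPM in HET with a median of 0.515, and from 0.249 to 0.565 CPM in WT with a median of 0.459. In HOM, 5 libraries were above the highest WT library and 1 was below the lowest. The log2 fold change was 0.29 in HOM against WT (SE 0.19, 95% interval -0.08 to 0.67, edgeR adjusted p = 0.354), 0.14 in HET against WT (adjusted p = 0.823) and 0.15 in HOM against HET (adjusted p = 0.878). Single libraries moved these values: HET against WT gave 0.06 without WT 6, and HOM against HET ran from 0.07 without HOM 5 to 0.24 without HOM 4. At these counts the 95% interval in HOM against WT held values of either sign, so the direction of any change was not settled. The list of 10 markers for peripheral and brainstem neurons, the cells that Prph usually marks, summed to 5.1 to 9.12 CPM in HOM, 5.73 to 7.46 CPM in HET and 5.27 to 9.13 CPM in WT.

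**Figure D2:**
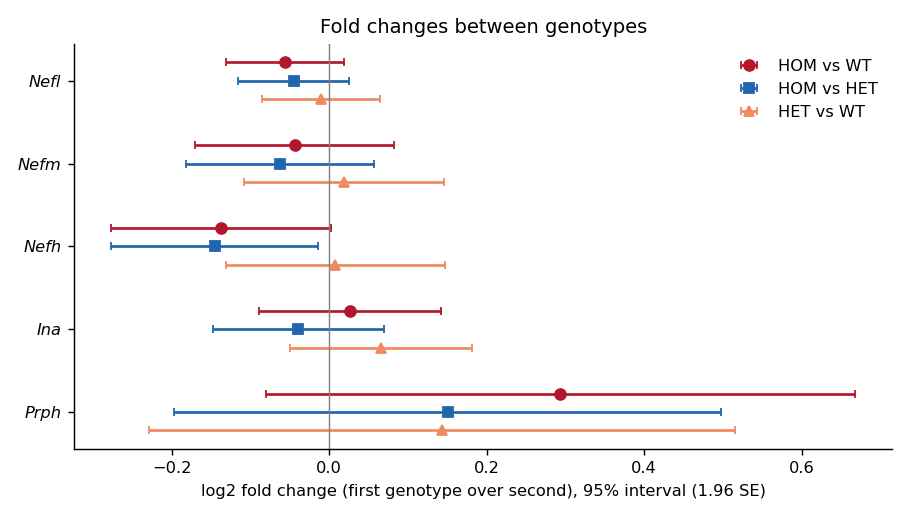
Log2 fold change of each gene (horizontal axis) in HOM over WT (circles), HOM over HET (squares) and HET over WT (triangles). Lines are 95% intervals from the SE. The interval of Nefh in HOM over HET ends at -0.01, the interval of Prph in HOM over WT runs from -0.08 to 0.67, and no gene passed after adjustment.

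The spread between libraries differed among genes and genotypes. The coefficient of variation (CV, SD over mean of CPM) of Nefl was 7.78% in HOM, 4.65% in HET and 3.65% in WT. That of Ina was 14.0% in HOM, 6.57% in HET and 3.68% in WT, where counting error alone would give 0.975%, 0.893% and 0.931% in the same order. Without HOM 1, a choice made after seeing the data, the CV of Ina in HOM was 7.91%. For Prph the CV was 35.1% in HOM, 20.9% in HET and 21.4% in WT, and counting error alone would give 19.1%, 18.8% and 20.2%. The spread of Prph in HET and WT was near its counting error, and in WT it was 11.9% without WT 6. Differences in spread between genotypes were not tested. Some libraries were extreme for several genes: HOM 10 was the lowest HOM library for Nefl, Nefm, Nefh and Ina, and HOM 9 was the highest for Nefl and Nefm.

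Subunit proportions were compared within each library, where total depth cancels. Nefm counts were 59.5% of Nefl counts in HOM, 60.3% in HET and 59.2% in WT, a log2 difference of 0.01 in HOM against WT (exact permutation p = 0.834, adjusted p = 0.938 over 18 tests) whose sign turned without some single libraries (-0.01 without HOM 9). Nefh counts were 14.3% of Nefl counts in HOM, 15.4% in HET and 15.1% in WT. Of the 3 genotypes, HOM had the lowest mean share of the heavy subunit.

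Ina stood highest against Nefh in HOM, at 276% of Nefh counts, with 257% in HET and 248% in WT. The log2 difference of HOM from WT was 0.16, with 10 of 10 HOM libraries above the WT mean and 7 above every WT library (exact two-sided permutation p = 0.0117, adjusted p = 0.199). For HOM against HET it was 0.10 (permutation p = 0.0388, adjusted p = 0.199). Nefh over Nefm was 0.09 lower in log2 in HOM than in WT (exact permutation p = 0.079, adjusted p = 0.237). None of the 18 differences of ratios passed after adjustment.

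The shallow library HOM 1 bore on these ratios. For HOM against HET, Nefh over Nefl differed by -0.10 (permutation p = 0.0474, adjusted p = 0.199) and Nefh over Nefm by -0.08 (permutation p = 0.0554, adjusted p = 0.199). Without HOM 1 these differences were -0.13 and -0.11, and both passed, with a permutation adjusted p of 0.0387. Of 336 ratio values with 1 library left out, these 2 were the only ones to pass. Without HOM 1 and HOM 2, the 2 shallowest libraries, neither difference passed. In HET, Ina over Nefl was 0.08 higher in log2 than in WT (exact permutation p = 0.0346, adjusted p = 0.199), with 4 of 10 HET libraries above every WT library.

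**Figure D3:**
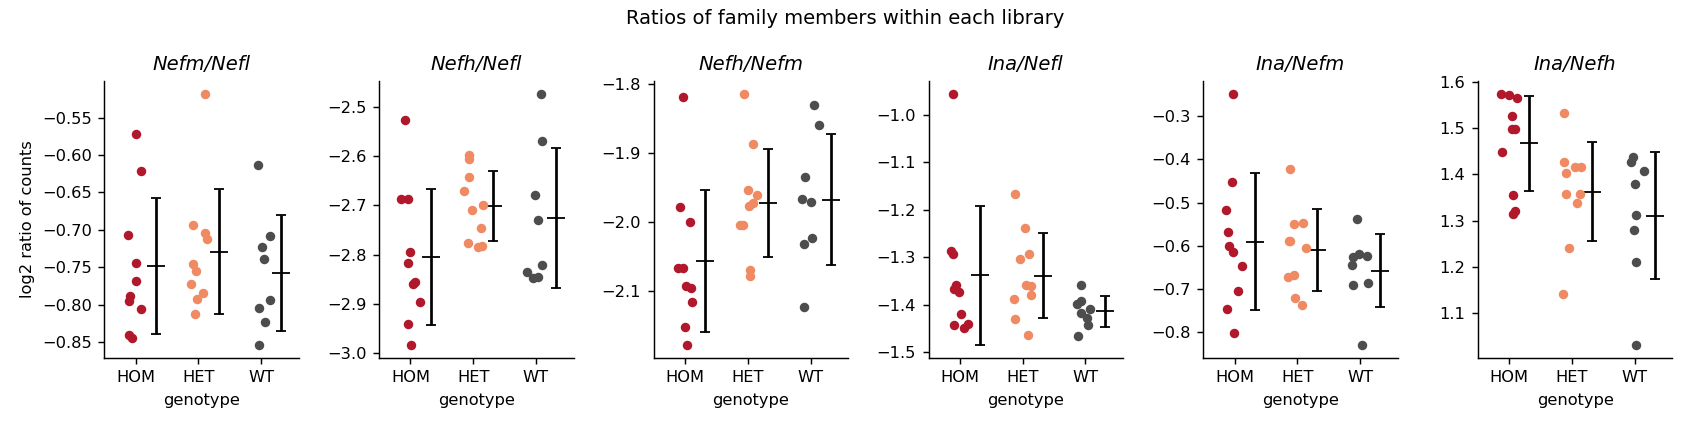
Log2 ratio of counts of pairs of family members (vertical axes) in each HOM, HET and WT library. Points are libraries and bars are the mean ± SD. For Ina over Nefh, the mean is 1.47 in HOM and 1.31 in WT, and 7 of 10 HOM libraries lie above every WT library.

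Across the 28 libraries the subunits rose and fell together. Pearson's r of log2 CPM was 0.843 between Nefl and Nefm (Spearman's rho 0.825) and 0.806 between Nefm and Nefh (rho 0.812), each with an adjusted permutation p of 5e-05 over 10 pairs, the smallest these permutations can give after adjustment. Without the 2 libraries farthest from the median these were 0.794 and 0.8. Nefl and Nefh gave 0.692 (rho 0.643, adjusted permutation p = 0.0001 for r and 0.000467 for rho), and 0.591 without such libraries. The strongest pair was thus Nefl and Nefm, the pair whose exons overlap on opposite strands, and the part of shared reads in it was not tested.

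Within genotypes, r between Nefl and Nefm was 0.893 in HOM, 0.808 in HET and 0.714 in WT. For Nefm and Nefh it was 0.839 in HOM, 0.795 in HET and 0.839 in WT. Ina moved with each neurofilament subunit, with r of 0.644 to Nefh (adjusted permutation p = 0.000225), 0.614 to Nefm (0.00094) and 0.562 to Nefl (0.00373). The last fell to 0.352 without the 2 farthest libraries, so it rested in part on those. No relation of Prph to the other members passed: its 4 coefficients ran from -0.274 to 0.133, with adjusted permutation p from 0.224 to 0.491.

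**Figure D4:**
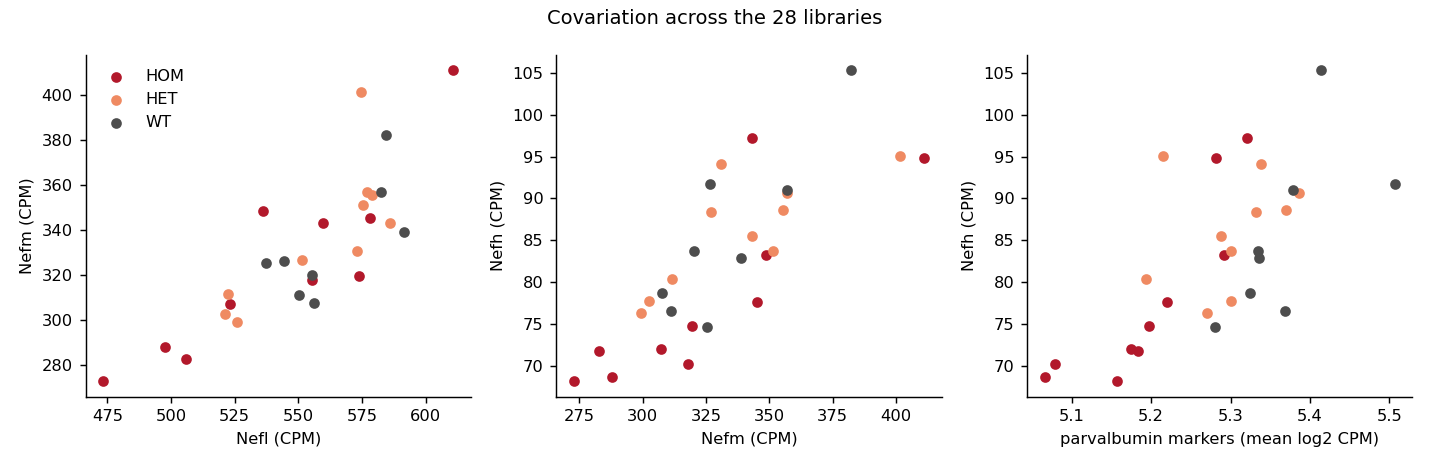
Nefm against Nefl, Nefh against Nefm, and Nefh against the mean of parvalbumin interneuron markers in 28 libraries coloured by genotype. Axes are CPM for the genes and mean log2 CPM for the markers. The coefficients, taken on log2 CPM, are 0.843, 0.806 and 0.713. HOM libraries lie along the same bands as HET and WT libraries, more of them at the low end of the third panel.

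Among 13922 genes with a mean of at least 1 CPM, likeness was measured as Pearson's r of log2 CPM over 28 libraries after the genotype mean was taken off. Nefm was the gene most like Nefl and Nefl the gene most like Nefm (r = 0.842), followed for Nefl by Tmem93 (0.8) and Ppp2cb (0.792), and for Nefm by Glrx3 and Gfm1 (0.826 each). Nefh was most like Kcng4 (0.86), a modifier subunit of potassium channels, then Sgpp2 (0.851) and Sema7a (0.82). Ina was most like Atp2a2 (0.873), the calcium pump of the endoplasmic reticulum, then Gm11549 and Rbbp5 (0.862 each). Many genes outside the family were more like Ina than its members were: Nefh ranked 125, Nefm 338 and Nefl 449 of 13922. In likeness to Nefm, Nefh ranked 5, and in likeness to Nefl it ranked 65. Prph had no gene above 0.664, the value for 2410018L13Rik, followed by Rhpn1 (0.652) and Gldc (0.622). These coefficients share depth and dissection across libraries and are given as description.

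The level of Nefh moved with markers of parvalbumin interneurons, fast-spiking inhibitory cells of cortex. Over 28 libraries r was 0.713 with the mean log2 CPM of the 11 markers (rho 0.698, permutation p = 1e-05, the smallest 100000 permutations can give, adjusted p = 0.0007 over 70 relations of members to marker lists). It was 0.635 without HOM 3 and HOM 8, the libraries farthest from the median, and within genotypes 0.878 in HOM, 0.31 in HET and 0.674 in WT. Nefl gave 0.482 (adjusted p = 0.139) and Nefm 0.417 (adjusted p = 0.289) with the same list. The only other relation with an adjusted p under 0.05 for r was Ina with pan-neuronal markers (r = 0.583, adjusted permutation p = 0.0276, rho 0.469 with adjusted p = 0.213), and it fell to 0.282 without HOM 1 and HOM 10, so it rested on those.

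Some of the same interneuron markers fell in HOM. Their summed level was 950 to 1150 CPM in HOM (median 1010), 1040 to 1200 CPM in HET (median 1130) and 1100 to 1260 CPM in WT (median 1150), and no marker was at 0. Of the 11 markers 4 fell in HOM against WT and none rose, beside 3.71% of all genes called lower, and the median log2 fold change was -0.23 against 0.005 over all genes. Pvalb, the calcium buffer that names these cells, fell by 0.28 on the log2 scale (SE 0.07, edgeR adjusted p = 0.0146), to 58.1 ± 6.64 CPM in HOM against 70.7 ± 7.08 CPM in WT. Erbb4, a neuregulin receptor, fell by 0.28 (adjusted p = 0.000388), Kcns3, a potassium channel subunit, by 0.24 (adjusted p = 0.0017) and Gad1, which makes GABA, by 0.23 (adjusted p = 0.000623). Their part in the level of Nefh was not tested. In whole tissue, fewer cells of a type and less RNA per cell cannot be told apart.

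Members of other marker lists were called as well. In HOM against WT, 6 of 10 microglia markers rose (median log2 fold change 0.19), as did 5 of 10 endothelial and mural, 4 of 8 oligodendrocyte precursor and 4 of 9 astrocyte markers, beside 3.9% of all genes called higher. Of 12 pan-neuronal markers, Celf4, an RNA-binding protein of neurons, fell by 0.11 (edgeR adjusted p = 0.0345) and the median was -0.04. Of 14 deep-layer markers 1 rose and 1 fell (median -0.06), and of 10 upper-layer markers 1 rose (median -0.1). Of 6 peripheral and brainstem markers tested 1 fell (median -0.02), where 3.71% of all genes were called lower. Of 9 meningeal fibroblast markers, 2 rose by edgeR, 5 by DESeq2 and 0 by voom. In either direction edgeR called 1226 of 16110 genes, DESeq2 1563 and voom 1429. The 9 markers had the largest median of the marker lists in HOM against WT, 0.59. They summed to 47 to 141 CPM in HOM, 51.1 to 94.2 CPM in HET and 37.3 to 64.8 CPM in WT, and HOM 3 had the highest mean log2 CPM of these markers. Striatal neuron markers had medians of -0.60 in HET against WT and 0.57 in HOM against HET, and cholinergic neuron markers -1.06 and 0.85, with 0 called in either list by edgeR, DESeq2 or voom. At an unadjusted edgeR p under 0.05 there were 3 of 9 striatal markers in each of these comparisons, beside 9.6% and 8.54% of all genes. Of 5 cholinergic markers tested there were 3 and 2. DESeq2 had 5 and 6 striatal and 3 and 2 cholinergic markers, where 1612 and 1398 of 16110 genes reached it. With voom there were 0 and 6 striatal and 1 and 4 cholinergic markers, where 2311 and 1984 genes did. The part of these marker lists in the levels of the filament genes was not tested.

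Of 11 other intermediate filament genes, 1 rose in HOM against WT, where 3.9% of all genes did, none fell, and the median log2 fold change was -0.01. That gene was Vim, the vimentin of glia and vessels, with 37.8 ± 9.82 CPM in HOM (n = 10), 33.0 ± 4.90 in HET (n = 10) and 29.1 ± 3.00 in WT (n = 8). Its log2 fold change was 0.38 (SE 0.12, edgeR adjusted p = 0.0457). Bfsp2, a filament gene known from the lens, had 0.41 (adjusted p = 0.0869). Gfap, the astrocyte filament, averaged 130 ± 32.6 CPM in HOM and 101 ± 19.6 CPM in WT, a log2 fold change of 0.36 that did not pass (adjusted p = 0.14); it was named after its value was seen.

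Over the 7 lists of genes related to neurofilaments, edgeR called 6 of 94 members in HOM against WT, or 6.38%, near the 7.61% over all genes. Of 20 kinases and phosphatases that act on them, 2 fell and none rose, beside 3.71% of all genes called lower. Prkacb, a catalytic subunit of protein kinase A, had 519 ± 27.8 CPM in HOM and 567 ± 14.2 CPM in WT, or -0.13 in log2 (SE 0.03, edgeR adjusted p = 0.00869). Mapk9, the kinase JNK2, had 283 ± 7.34 CPM in HOM and 298 ± 8.22 CPM in WT, or -0.08 in log2 (adjusted p = 0.039). Among 18 genes of axonal transport, Bicd2, a dynein adaptor, rose by 0.14 (adjusted p = 0.0261), with 119 ± 6.83 CPM in HOM and 108 ± 5.03 CPM in WT. Pafah1b1, the dynein regulator LIS1, had -0.08 (adjusted p = 0.0596).

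No member of the remaining filament lists was called apart from the RNA binders. Of 8 linkers 0 passed. Dsp (desmoplakin) had 0.79 at a low level of 0.344 CPM in HOM and 0.193 CPM in WT (adjusted p = 0.0799), and Myo5a, a myosin that carries cargo along actin, had -0.07 (adjusted p = 0.0824). DESeq2 called 1 linker, beside 1563 of all 16110 genes, and voom 0, beside 1429. Of 9 turnover genes 0 passed, with Cul3, a scaffold of ubiquitin ligases, at -0.05 (edgeR adjusted p = 0.304). Of 21 tubulins, microtubule-associated proteins and spectrins 0 passed, with Ank3, the ankyrin of the axon initial segment, at -0.07 (adjusted p = 0.15). At an unadjusted p under 0.05 edgeR had 3 linkers, 1 turnover gene and 3 tubulins, microtubule-associated proteins and spectrins, where 24.6% of all genes reached it. DESeq2 and voom called 0 of the turnover genes and 0 of the last list.

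Of 7 proteins reported to bind neurofilament RNA, 1 rose and 1 fell in HOM against WT, beside 3.9% of all genes called higher and 3.71% called lower. Tardbp rose by 0.12 on the log2 scale (SE 0.03, edgeR adjusted p = 0.0185) and Hnrnpk, a splicing and stability factor, fell by 0.09 (SE 0.02, adjusted p = 0.0173), to 304 ± 11.4 CPM in HOM against 324 ± 7.93 CPM in WT. Exons of both overlap a coding gene on the other strand, so both values are uncertain to that extent. In HET against WT and in HOM against HET, edgeR, DESeq2 and voom each called 0 of the 94 members of these 7 lists. At an unadjusted edgeR p under 0.05 there were 4 (4.26%) and 6 (6.38%) members, beside 9.6% and 8.54% of all genes. DESeq2 had 4 and 5 members, where 1612 and 1398 of 16110 genes reached it. With voom there were 7 and 15 members, where 2311 and 1984 genes did.

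**Figure D5:**
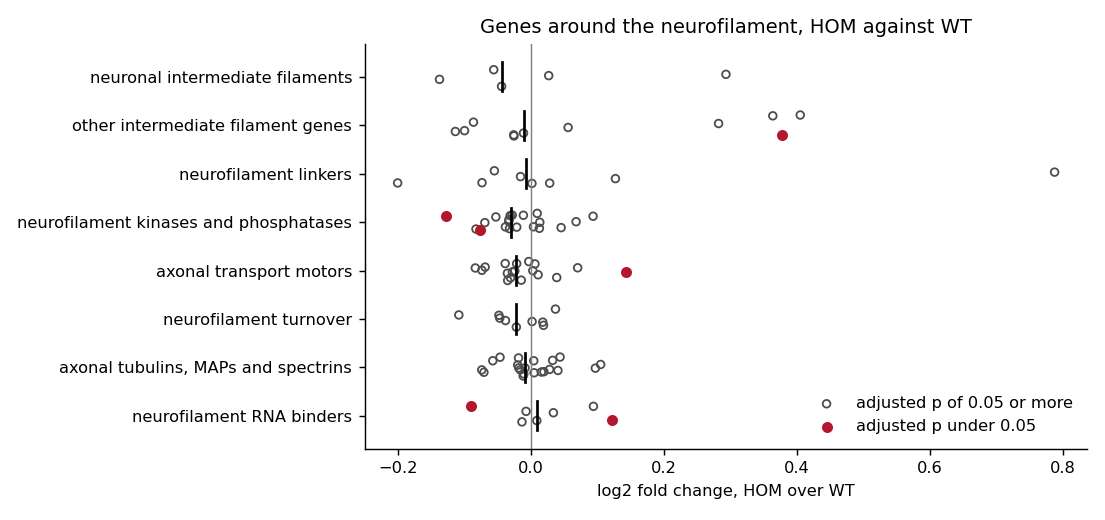
Log2 fold change in HOM over WT (horizontal axis) of the 5 filament genes and of 7 lists of related genes. Filled points have an adjusted p under 0.05 and black bars are list medians. The bar of the 5 filament genes is at -0.04, and 0 of them are filled.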

How the data were processed

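PolyA RNA of frontal cortex was sequenced from libraries made with a stranded Illumina mRNA kit, per the labels' protocols. The submitters' processing notes name Trim Galore 0.4.3, HISAT2 2.0.5 and the build GRCm38. How reads were counted, on which strand and with which annotation is not given in the sources used here, so reads of genes that overlap on opposite strands cannot be told apart. The authors deposited raw counts of reads per gene, as their whole numbers and unequal totals show. Identifiers on several rows (57, in 122 rows) were summed. All 378 pairs of libraries differed by more than sampling noise (lowest chi-square per degree of freedom 6.12).

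Genes were filtered with filterByExpr (16110 left), scaled by TMM and tested two-sided with edgeR 4.0.16 in R 4.3.3 (quasi-likelihood, all 28 libraries in 1 fit, a mean per genotype; a separate fit for the slope), with Benjamini-Hochberg adjustment over all genes and a threshold of 0.05. The biological coefficient of variation was 8.46%. Levels are TMM-scaled CPM, and correlations used log2 CPM with a prior count of 2. Ratios of counts were compared by exact permutation, or 100000 resamples between HOM and HET. Lengths and exons came from GENCODE vM21. Fits were tested on simulated data in HOM against WT. Of 50 genes changed 1.1-fold 14 were recovered, and of 50 changed 1.3-fold 44 were, with 7 false calls among 164. Many changes as small as 1.1-fold would thus be missed. The changed genes had at least 1 CPM, a level above that of Prph.

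The members and the lists were chosen with earlier results of these data known. The text names the 5 members and Tardbp, up to 4 called members of a filament list with the smallest p (at least 2 members, called or not), and the 3 genes most like each member, and some genes under this rule are not reported here; of the marker lists it names a part, selected after their values were seen. Of 233 listed names, 221 were in the table, 10 were matched through their identifier and 2 were not analysed here. Alternatives were DESeq2 1.42.0, limma 3.58.1 voom with quality weights, other scalings and filters, libraries left out, fits of only the 2 groups at issue, a block for replicate number, and 2 surrogate variables (sva 3.50.0).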

Additional observations from a re-analysis of the deposited data

Results flagged for a closer look

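Of 36 groups of libraries examined for a single outlying library, 2 held one, and chance gives about 1 in 20. In HET, the log2 ratio of Nefm to Nefl counts was -0.518 in HET 10, the highest of the 10 libraries, with the next at -0.693. Its gap was 0.595 of the group's range, above the critical value of 0.466. In HOM, the log2 ratio of Ina to Nefl counts was -0.955 in HOM 1, again the highest of 10, with the next at -1.29 and a gap of 0.67 of the range. HOM 1 was also among the shallowest libraries, at 32.8 M counts. The part of depth in this ratio was not tested.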

How the results depend on the processing

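No member had an adjusted p under 0.05 under any alternative tried, and 206 of 211 values for members kept their direction and their side of the threshold, as did 410 of 420 with 1 library left out. Ina in HOM against WT (0.03) was -0.0021 with 2 surrogate variables and -0.0325 without the 2 shallowest libraries, and its slope was -0.0181 and -0.0163 under the same settings. Nefm in HOM against WT was 0.0017 without WT 6 and HOM 3. Prph has no value with at least 1 CPM in 8 libraries. Leaving out 1 library gave -0.0307 to 0.0531 for Ina in HOM against WT, -0.0171 to 0.0257 for its slope, and in HET against WT -0.0117 to 0.049 for Nefm and -0.0203 to 0.0561 for Nefh. The cause was not tested.

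Of ratios, 66 of 72 kept direction and call. With medians Nefm/Nefl in HOM against WT was -0.0119, and in HOM against HET Ina/Nefl was -0.0108 and Ina/Nefm -0.0098. Without the 2 shallowest libraries Ina/Nefl was -0.0339 and Ina/Nefm -0.0086. Nefh/Nefm in HET against WT was 0.0109 without WT 6 and HOM 3. With 1 library left out, ratios in HOM against HET ran from -0.0391 to 0.0039 (Nefm/Nefl), -0.1348 to -0.084 (Nefh/Nefl), -0.1106 to -0.0668 (Nefh/Nefm), -0.0423 to 0.0193 (Ina/Nefl) and -0.0181 to 0.0434 (Ina/Nefm). Nefm/Nefl in HOM against WT ran from -0.011 to 0.0292, and Nefh/Nefm in HET against WT from -0.0267 to 0.0151.

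Genes called in HET against WT (0) came to 12 with DESeq2, 14 with voom, 1 with no scaling, 1 with at least 1 CPM in 8 libraries, 4 with only the groups compared, 5 with surrogate variables and 2 without the shallowest libraries. In HOM against HET (6) there were 50 with DESeq2 and 53 with voom. Without WT 6 and HOM 3, 509 were called in HOM against WT (1226) and 608 in the slope (1254). With 1 library left out the counts ran from 595 to 1345 in HOM against WT (lowest without WT 6), 681 to 1401 in the slope, 3 to 15 in HOM against HET and 0 to 3 in HET against WT. No pairing of libraries by replicate number was seen, though a weak one could be missed. Same-numbered libraries correlated at -0.164 to 0.183, and 2 of 28 correlated best with their own number. With the replicate number as a block 737 genes were called in HOM against WT and 821 in the slope, and Nefh had -0.1521 (edgeR adjusted p = 0.268). Among the filament lists in HOM against WT, voom called 3 of 11 other intermediate filament genes, where edgeR called 1. DESeq2 called 2 of 18 axonal transport genes, where edgeR called 1. Over all 16110 genes voom called 1429 and DESeq2 1563.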
